A study of Mus musculus with 3 samples.

Results

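The complement system was described here through 33 genes of its components, regulators and receptors, chosen by gene symbol, with earlier results of these data known but by a rule that uses no measured value, among 37620 genes in the deposited tables. Of the 33, 32 were found by symbol, and 28 had a mean of at least 1 RPKM (reads scaled to the length of the gene and the size of the library) over the 3 libraries and were tested. C7, Cfd, Cd46 and Cd55 lay under that level and were not tested. The expression of C1rb was not analysed here.

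Complement is a cascade of plasma proteins that marks microbes and damaged cells. The classical route starts with C1q and its proteases, the lectin route with mannose-binding lectins and their proteases, and the alternative route with C3 itself and factors B and D. All routes cleave C3 and then C5, and the terminal components C6 to C9 assemble into a pore. Hepatocytes make most of the plasma components, several of which are acute phase proteins, whereas C1q and properdin come mainly from macrophages and other myeloid cells.

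RNA was sequenced from primary hepatocytes of C57BL/6 mice, labelled passage 1 and grown on gelatin with serum and insulin after collagenase perfusion of the liver. The compared groups were 1 library of cells given the solvent DMSO and 2 libraries of cells given tauroursodeoxycholic acid (TUDCA), a bile acid conjugated to taurine. The labels state 100 mM and 24 h for TUDCA but give DMSO no time, so time and treatment cannot be told apart, and the unit of the dose was not checked against another source. The design text speaks of 2 independent experiments and assigns no library to either, so the p-values measure only the spread between these libraries, which may be technical. The RPKM values rest on library totals of 9757547 to 10774289 reads. Values of 3 libraries are given in the order DMSO, TUDCA replicate 1, TUDCA replicate 2. Means ± SD are of the 2 TUDCA libraries (n = 2), and all DMSO values come from 1 library without a replicate.

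The labelled cell type was checked against markers. All 12 hepatocyte markers were above 1 RPKM in each library, led by Alb (albumin) at 5771, 7177 and 6111 RPKM. Their levels were uneven. The lowest of the 12 were Cps1 at 2.62, 5.79 and 6.08 RPKM and Tat at 6.81 to 9.23 RPKM. Macrophage and Kupffer cell markers were also present, with Cd68 at 170.4, 154.3 and 169.4 RPKM and Clec4f, a Kupffer cell lectin, at 3.50, 3.93 and 4.42 RPKM. The lowest, Timd4 (0.26, 0.28 and 0.13 RPKM) and Ptprc (0.47, 0.90 and 0.51 RPKM), were under 1 RPKM in each library. The summed level of the 16 macrophage markers was 677, 753 and 798 RPKM, and none was at 0. Cd14 (326, 400.2 and 452 RPKM) made up the rise of this sum, since the other 15 markers together had 350.3, 353 and 346 RPKM. Sinusoidal endothelial markers summed to 30.7, 27.1 and 26.1 RPKM and stellate cell and fibroblast markers to 15.5, 13.3 and 11.6 RPKM. Of 7 lymphocyte markers, 5 were at 0 in each library, among them Cd3e and Ms4a1. In such bulk samples, fewer cells of a type and less RNA per cell cannot be told apart.

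Complement transcripts ranged from 0 to 3447 RPKM, as the plot of levels by library shows. The order and shares of genes below are on the RPKM scale and depend on gene lengths, which are not given. C3, the protein on which all routes meet, stood at 2222, 3374 and 3447 RPKM and made up 60.0%, 64.2% and 65.4% of the summed RPKM of the complement genes. Serping1 (C1 inhibitor) followed at 381, 443 and 472 RPKM, and C4b at 187, 240.4 and 246 RPKM. These 3 genes were separated from each other and from the rest, since the libraries of one did not overlap those of the next. From C8g (mean 128 RPKM over the 3 libraries) down to Masp1 (13.9 RPKM) each gene overlapped its neighbour in the order of levels. In all, 24 of the 31 neighbouring pairs overlapped over the 3 libraries. The complement genes together held 0.509% of the summed RPKM of the DMSO library and 0.735% and 0.718% of that of the TUDCA libraries. Without C3 the sums were 1483, 1878 and 1824 RPKM, so both TUDCA libraries also stood above DMSO for the other genes together.

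**Figure D1:**
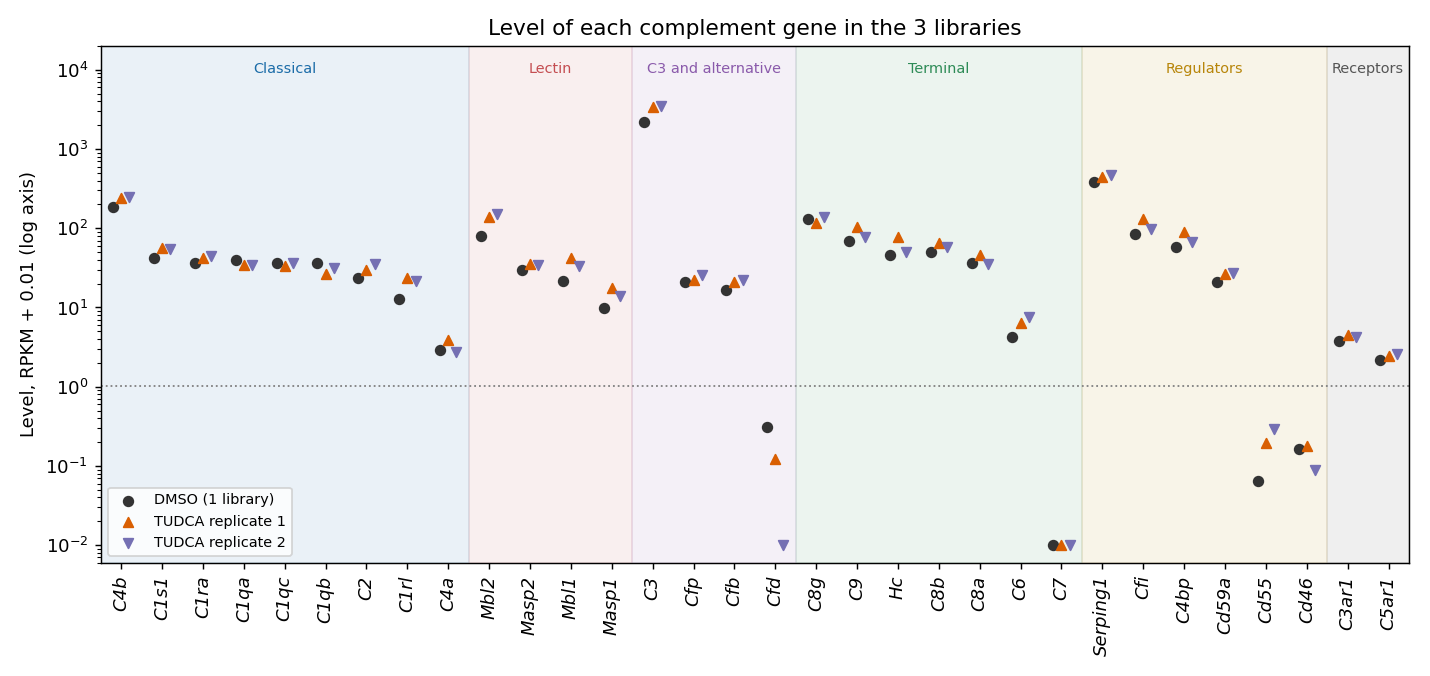
Level of the 32 complement genes in each library, as RPKM + 0.01 on a log axis, grouped by route (circle: DMSO, 1 library, triangles: TUDCA replicates 1 and 2, dotted line: 1 RPKM). C3 lies above all others at 2222 to 3447 RPKM, and Cfd, C7, Cd55 and Cd46 lie under the dotted line.

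With TUDCA, 1 of the 28 tested complement genes was called higher and 0 were called lower by limma (moderated test on log2(RPKM + 1), Benjamini-Hochberg adjusted p below 0.05 over 11300 genes). Over all genes tested 1.77% were called higher, 0.876% lower and 2.65% in either direction, so 1 of 28 is close to the background. The called gene was Mbl2, a mannose-binding lectin of the lectin route. At an unadjusted limma p below 0.05, 7 complement genes were higher (Mbl2, Mbl1, C3, C1rl, Masp1, C6 and Hc) and 0 lower, beside 6.58% higher and 10.8% in either direction over all genes.

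The small differences mostly pointed the same way. Both TUDCA libraries lay above the DMSO library for 22 of the 28 genes and below it for 2 (C1qa and C1qb), against 40.5% and 30.4% of all genes tested. The DMSO value lay between the TUDCA values for C1qc, C4a, C8a and C8g. The median log2 difference was 0.35 (0.34 and 0.25 for the single TUDCA libraries), against 0.04 over all genes tested (0.06 and 0.02). For 20 of the 28 genes the mean difference was larger than the gap between the TUDCA libraries, as it was for 49.5% of all genes. Both TUDCA libraries were compared with the same DMSO library, so their directions are not independent. Hepatocyte markers had a median log2 difference of 0.27 with 2 of 12 called higher (Fgb and Hnf4a) and summed levels of 12752, 16103 and 14117 RPKM. Both TUDCA libraries were above DMSO for 9 of these 12 and below it for 2, Apoa1 (2312, 2096 and 2135 RPKM) and Apoc3 (884, 873 and 855 RPKM). Fgb had 914, 2530 and 1885 RPKM. Of the 3 tested biliary markers, Spp1 and Sox9 were above DMSO in both TUDCA libraries. For Krt19 the DMSO value lay between the TUDCA values. The mean differences were positive for 3 of 3 (median 0.48), and 1 was called higher (Spp1, limma adjusted p = 0.00464). The biliary list summed to 419, 804 and 627 RPKM, most of it from Spp1 alone (387, 768 and 578 RPKM). Krt7 and Epcam were under 1 RPKM in each library and were not tested. Cftr of that list was at 0 in each library. All 6 tested stellate cell and fibroblast markers had negative differences (median -0.18), and 0 were called. The part of these markers in the complement result was not tested.

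**Figure D2:**
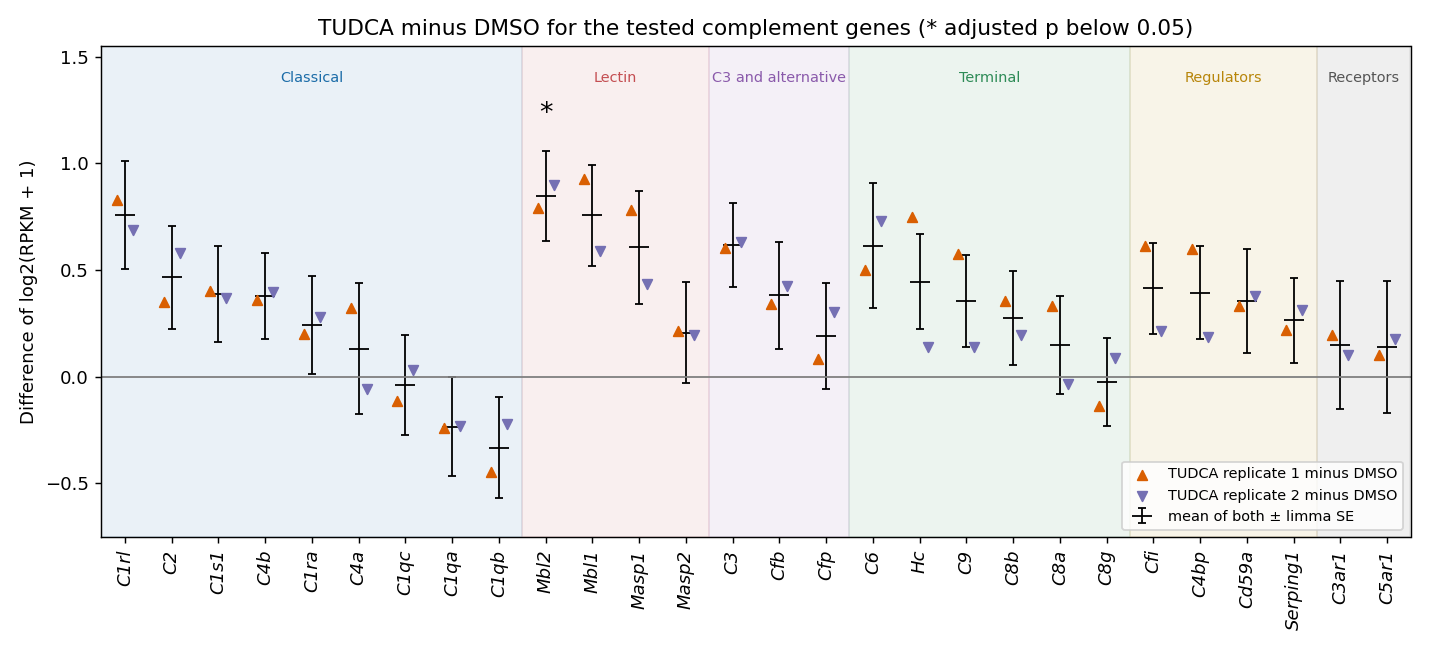
Difference of log2(RPKM + 1) between each TUDCA library and DMSO for the 28 tested complement genes, with the mean of both and its limma SE, grouped by route. The star marks Mbl2, the only gene with an adjusted p below 0.05, and C1qa and C1qb are the only genes with both triangles below 0.

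The lectin route had the largest median difference of the routes (log2 difference 0.68 over 4 genes), and its 4 genes were above DMSO in both TUDCA libraries. Mbl2, which binds mannose and other sugars on microbes, had 79.5, 138 and 149 RPKM, so both TUDCA libraries were well above DMSO. It rose to 1.81 times DMSO (144 ± 7.67 RPKM, log2 difference 0.85 ± 0.21 SE, limma adjusted p = 0.00356), and its TUDCA libraries were only 0.11 apart on the log2 scale. This call was lost without the variance trend and without the filter on low genes (limma adjusted p = 0.079 and 0.502, from 0.00134 over the alternatives). Its relative Mbl1 had 21.8, 42.3 and 33.3 RPKM, with both TUDCA libraries above DMSO (log2 difference 0.76 ± 0.24, limma adjusted p = 0.0532). Mbl1 passed with a pseudocount of 0.1 RPKM and with TPM (limma adjusted p = 0.0495 and 0.0432, up to 0.589 over the alternatives). The proteases that travel with these lectins were less separated from DMSO. Masp1 had 9.97, 17.8 and 13.8 RPKM (limma adjusted p = 0.309). Masp2, which cleaves C4 and C2, had 30.0, 35.0 and 34.5 RPKM (limma adjusted p = 0.880). Mbl2 transcripts were 3.64, 3.27 and 4.48 times as abundant as Mbl1 on the RPKM scale, so Mbl2 was the more abundant in each library.

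The promoters of both lectin genes are shown because these genes had 2 of the 3 largest differences of the complement genes and share a stretch of sequence. Each is 250 bases before to 50 bases after the start of the gene in RefSeq on build GRCm38.p6, plus strand, chr14:41151206-41151505 for Mbl1 and chr19:30232678-30232977 for Mbl2. Capitals mark the best local alignment between them, 45 bases of which 38 are identical, with a longest identical run of 13 bases.

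Mbl1: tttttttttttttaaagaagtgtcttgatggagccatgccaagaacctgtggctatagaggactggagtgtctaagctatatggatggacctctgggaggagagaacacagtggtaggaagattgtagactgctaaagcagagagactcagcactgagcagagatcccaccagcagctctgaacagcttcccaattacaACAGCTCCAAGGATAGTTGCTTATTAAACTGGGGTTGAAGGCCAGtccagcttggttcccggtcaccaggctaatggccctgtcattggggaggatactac
Mbl2: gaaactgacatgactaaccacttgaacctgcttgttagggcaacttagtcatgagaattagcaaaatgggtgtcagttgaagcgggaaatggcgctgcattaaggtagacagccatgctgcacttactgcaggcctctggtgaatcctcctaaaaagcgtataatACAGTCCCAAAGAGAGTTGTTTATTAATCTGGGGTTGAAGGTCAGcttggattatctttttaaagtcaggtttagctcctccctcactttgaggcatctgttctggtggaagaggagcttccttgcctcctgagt

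The aligned block runs from 51 to 7 bases before the start of Mbl1 and from 85 to 41 bases before that of Mbl2. The genes lie on different chromosomes, and their longest transcripts are only 67.4% identical over 678 aligned bases, with no identical run over 26 bases.

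C3 lay well above DMSO in both TUDCA libraries. Its reads, at least 39906, 54884 and 60769 (the smallest whole numbers that give the deposited RPKM), correspond to 2222, 3374 and 3447 RPKM. The TUDCA mean was 1.54 times DMSO (3411 ± 51.5 RPKM, log2 difference 0.62 ± 0.20 SE) and missed the threshold (limma adjusted p = 0.059). The TUDCA libraries differed by 0.03 on the log2 scale, while the SE came from the spread that limma pooled over genes of similar level. C3 passed with a pseudocount of 0.1 RPKM, TPM, quantile normalization and voom (adjusted p = 0.0395, 0.034, 0.000206 and 0.0128, up to 0.577 over the alternatives). Cfb (factor B, the protease subunit of the alternative convertase) had 16.39, 20.99 and 22.32 RPKM, and Cfp (properdin, which stabilises that convertase) had 20.7, 21.9 and 25.7 RPKM. Neither was called (limma adjusted p = 0.669 and 0.899). Cfd (factor D or adipsin, which cleaves factor B and is made mainly by fat cells) had 3, 1 and 0 reads, too few to compare. The 5 adipocyte markers summed to 12.9, 11.9 and 8.28 RPKM. Of these, Cidec (8.99, 4.47 and 3.38 RPKM) was called lower (limma adjusted p = 0.0231), and Fabp4 had 3.79, 7.24 and 4.90 RPKM. Adipoq was at 0 in 2 of the 3 libraries, Plin1 in 1 and Lep in each.

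The promoter of C3 is shown for its matches to the motif of C/EBP factors, regulators of acute phase genes in liver. It comes from RefSeq on build GRCm38.p6, minus strand, chr17:57228087-57228386, and capitals mark TTNNGNAA on either strand.

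C3: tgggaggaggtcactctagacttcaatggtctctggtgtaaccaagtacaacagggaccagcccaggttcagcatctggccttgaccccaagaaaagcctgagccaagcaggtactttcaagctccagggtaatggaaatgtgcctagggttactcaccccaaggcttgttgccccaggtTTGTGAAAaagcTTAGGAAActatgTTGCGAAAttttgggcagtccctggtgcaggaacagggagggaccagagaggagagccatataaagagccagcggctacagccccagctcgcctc

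These 8-base matches begin 70, 58 and 45 bases before the start of C3, and the last of them matches on both strands. Of the complement genes, 25 had a promoter in the table (27 promoters in all), and 14 of the 27 held this motif, 51.9% against 40.7% of 32851 promoters of the same length. The overlapping promoters of C1s1 share a match and were both counted among the 14, as was C1rb, whose expression was not analysed. The STAT motif TTCNNNGAA was in 5 of 27 (18.5% against 8.30%) and the HNF1 core GTTAAT in 8 of 27 (29.6% against 7.10%), both strands read. The genes with the HNF1 core included C7 and Cd55, which were not tested. In these exact letters, the promoters of Mbl1 and Mbl2 held none of the 3 motifs, so the called gene was not among those with a match. Sites with other letters would be missed, and C1qa, C2, C4a, C4b, Cfb, Cfi, Masp1 and Serping1 had no promoter to search.

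In the classical route, the proteases, C2 and C4b lay above DMSO in both TUDCA libraries and the chains of C1q did not. C1rl, a protease related to C1r, had 12.9, 23.6 and 21.3 RPKM, with both TUDCA libraries above DMSO (1.75 times, log2 difference 0.76 ± 0.25, limma adjusted p = 0.0902). C1s1 (C1s, which cleaves C4 and C2) had 42.5, 56.5 and 55.1 RPKM, and C1ra (C1r, which activates C1s) 36.5, 42.1 and 44.5 RPKM. C2, which forms the classical convertase with C4b, had 23.3, 30.0 and 35.4 RPKM. None of these 3 was called (limma adjusted p = 0.586, 0.834 and 0.470). C1rl, C1ra and C1s1 are direct neighbours on chromosome 6 in the RefSeq annotation, with no coding gene between them. C1rb and C1s2 follow directly, and the longest transcripts of C1ra and C1rb are 98.0% identical over 2428 aligned bases. The reads of C1ra may therefore hold reads of C1rb. C1s1 and C1s2 share 95.9% of 2661 aligned bases, and C1s2 had 1, 1 and 0 reads.

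The main C4 gene, C4b, was above DMSO in both TUDCA libraries (187, 240.4 and 246 RPKM, mean 243 ± 4.11 with TUDCA) and was not called (log2 difference 0.38 ± 0.20, limma adjusted p = 0.505). Its copy C4a had 2.88, 3.84 and 2.73 RPKM from at least 43, 52 and 40 reads, with DMSO between the TUDCA libraries. On the RPKM scale C4b was thus 64.9, 62.6 and 90.3 times as abundant as C4a. The gene lengths behind these RPKM values are not given, and the ratio depends on them. GENCODE release M21 lists the longest transcript of C4a as processed and not as coding. Their transcripts are 96.1% identical over 5367 aligned bases, and the longest identical run is 433 bases, so how reads divide between both genes is uncertain. To show how far the copies can be told apart, the 90-base stretch with the most differences inside the longest open reading frame of C4b follows, with the 14 differing bases in capitals, from positions 2725 to 2814 of the C4a transcript and 2731 to 2820 of the C4b transcript.

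C4a: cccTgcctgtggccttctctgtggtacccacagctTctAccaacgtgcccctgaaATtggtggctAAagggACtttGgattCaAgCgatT
C4b: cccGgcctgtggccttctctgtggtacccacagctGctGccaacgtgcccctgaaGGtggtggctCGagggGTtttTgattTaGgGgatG

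The 3 chains of C1q, the recognition molecule that binds antibody on a target, were the classical genes at or below DMSO. C1qa had 40.2, 33.9 and 34.1 RPKM, C1qb 36.5, 26.6 and 31.2 RPKM, and C1qc 36.1, 33.3 and 36.9 RPKM. Both TUDCA libraries were below DMSO for C1qa and C1qb, and those of C1qc enclosed the DMSO value. None was called (log2 differences -0.23, -0.33 and -0.04, limma adjusted p = 0.845, 0.716 and 0.990). The chains are adjacent on chromosome 4, assemble in equal numbers, and had similar levels: C1qa was 1.10, 1.28 and 1.09 times C1qb.

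The other complement genes known from macrophages were likewise near DMSO. The receptor of the C3a fragment, C3ar1, had 3.82, 4.52 and 4.17 RPKM, and the receptor of C5a, C5ar1, had 2.18, 2.41 and 2.60 RPKM (limma adjusted p = 0.950 and 0.958). Of the macrophage markers, 14 of 16 were tested and 0 were called in either direction, with a median log2 difference of 0.05. Their part in the values of C1q, properdin and the receptors was not tested. The contrast between C1q and the other complement genes was not tested either.

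**Figure D3:**
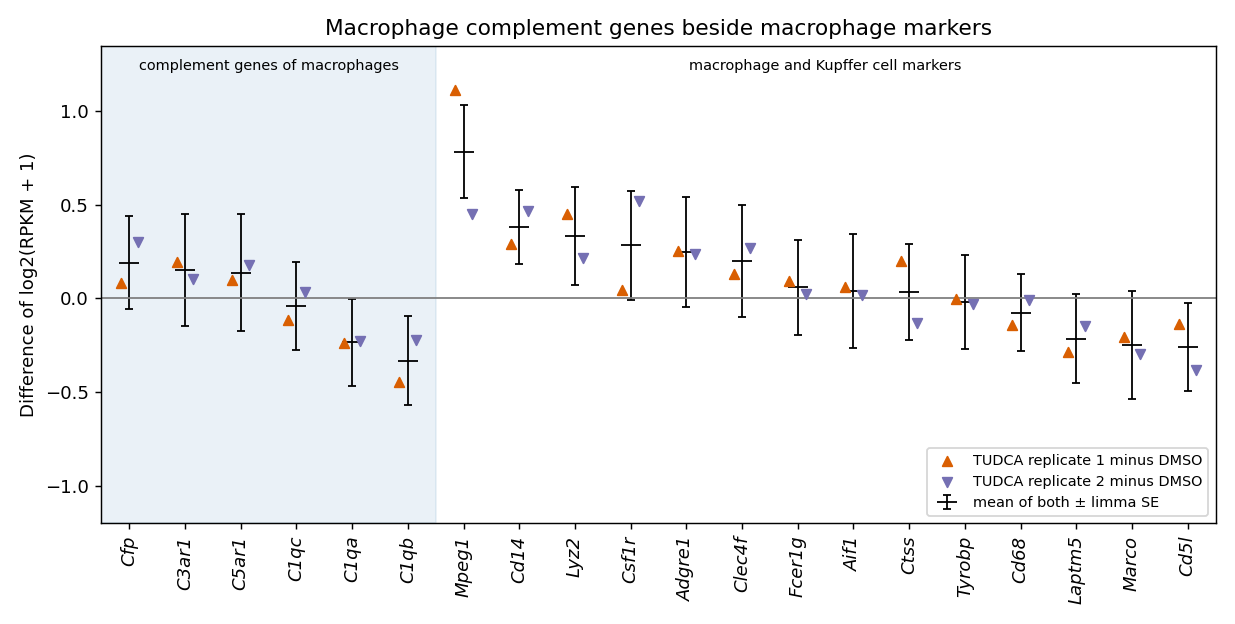
Difference of log2(RPKM + 1) from DMSO for 6 complement genes known from macrophages (shaded) and for the 14 tested macrophage and Kupffer cell markers, for each TUDCA library and as their mean ± limma SE. Both sets lie on either side of 0, from -0.33 for C1qb to 0.79 for Mpeg1.

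Among the terminal components, 0 of 6 tested genes were called, and for several the TUDCA libraries differed from each other. Hc, which encodes C5, had 45.6, 77.4 and 50.3 RPKM, and C9, the component that polymerises into the pore, had 69.8, 104 and 76.9 RPKM. TUDCA replicate 1 was well above DMSO for both, and replicate 2 was near it. With replicate 2 alone the log2 differences were 0.14 for each, and with replicate 1 alone 0.75 and 0.57. C6, which joins C5b first, had 4.18, 6.32 and 7.59 RPKM from 46, 63 and 82 reads. None of the 3 was called (limma adjusted p = 0.448, 0.614 and 0.396).

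The 3 chains of C8 showed no common direction. C8a had 36.7, 46.4 and 35.8 RPKM, C8b had 50.4, 64.7 and 57.9 RPKM, and C8g had 129, 117 and 137 RPKM. Only C8b was above DMSO in both TUDCA libraries, and none was called (limma adjusted p = 0.926, 0.776 and 0.995). For C8g the mean with TUDCA was 127 ± 14.1 RPKM, with a log2 difference of -0.02 ± 0.21 and a 95% interval of -0.43 to 0.38. These chains form 1 complex, yet on the RPKM scale C8g, a lipocalin, was 3.52, 2.53 and 3.83 times as abundant as C8a. The smallest whole reads were 1027, 845 and 1072 for C8g and 978, 1120 and 937 for C8a. The ratio thus depends on the gene lengths behind RPKM, which are not given. C8a and C8b are neighbours on chromosome 4, and C8g lies on chromosome 2. C7 had no read in any library, which allows up to 3 reads per library, or 0.278 to 0.307 RPM, reads scaled to library size (the exact 95% Poisson limit is 3.69 reads, and both cover counting error only). C6 and C7 lie close together on chromosome 15 with 1 coding gene between them.

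The soluble regulators were among the most abundant complement genes and lay above DMSO. Serping1, whose product blocks C1r, C1s and the lectin proteases, had 5925 to 7217 reads per library (457 ± 20.997 RPKM with TUDCA against 381 in DMSO, log2 difference 0.26 ± 0.20, limma adjusted p = 0.743). Cfi (factor I, which cleaves C3b and C4b) had 84.4, 129 and 98.1 RPKM (log2 difference 0.41 ± 0.21, limma adjusted p = 0.465). C4bp, a cofactor of factor I, had 58.6, 89.1 and 66.8 RPKM (limma adjusted p = 0.543). As for C5 and C9, TUDCA replicate 1 was the higher library for Cfi and C4bp. Their log2 differences were 0.61 and 0.60 in that library and 0.22 and 0.19 in replicate 2.

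The membrane regulators were split between 1 expressed gene and 2 near 0. Cd59a, which blocks the pore, had 21.1, 26.8 and 27.6 RPKM (limma adjusted p = 0.693). Cd55 (decay accelerating factor) had 1, 3 and 5 reads, and Cd46 (membrane cofactor protein) 2, 2 and 1 reads. Exact 95% Poisson intervals for Cd55 were 0.0253 to 5.57 reads in DMSO and 1.62 to 11.7 reads in TUDCA replicate 2. These intervals overlap, which is not a test of a difference, and Cd55 was not tested. Cr1l (Crry), the membrane regulator of rodents with a like function, was named after its values were seen and had 45.7, 44.7 and 44.5 RPKM.

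Large gaps between the TUDCA libraries had 1 direction in the complement genes. In 8 of 28 genes (C4a, Masp1, Mbl1, Hc, C8a, C9, C4bp and Cfi) the TUDCA libraries were at least 0.3 apart on the log2 scale, and TUDCA replicate 1 was the higher in 8 of 8. Over all genes such gaps were as common (28.6% of complement genes and 30.0% of all), and replicate 1 was the higher in 63.8% of them. In 11 genes the TUDCA libraries were within 0.1, among them C3, C4b, C1s1, C1ra, Serping1 and Cfb, against 25.9% of all genes.

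Of 27 further complement genes that are not among the 33, 16 were tested, and limma called 0 higher and 1 lower (median log2 difference 0.20, both TUDCA libraries above DMSO for 8 and below for 4). At an unadjusted limma p below 0.05 there were 2, Calr and Cpn2, a carrier subunit of carboxypeptidase N named after its values were seen. Cpn2 had 2.57, 7.31 and 4.39 RPKM, with both TUDCA libraries above DMSO (log2 difference 0.91 ± 0.30, limma adjusted p = 0.0765). It passed with voom (adjusted p = 0.0163) and in limma with no variance trend (0.0452), and reached 0.64 over the alternatives. Its log2 differences were 1.219 in replicate 1 and 0.59 in replicate 2. Calr, a chaperone of the endoplasmic reticulum that can also bind C1q, fell from 1360.4 RPKM in DMSO to 673 ± 6.03 RPKM (log2 difference -1.01 ± 0.20, limma adjusted p = 2.99e-05), and lost its call without the filter (0.502). The fluid phase inhibitors of the pore, Clu (clusterin) and Vtn (vitronectin), were the most abundant of these genes. Clu had 10769, 12420.2 and 14616 RPKM and Vtn 1152, 1055 and 1124 RPKM, and neither was called (limma adjusted p = 0.641 and 0.963). C1qbp had 276, 234 and 257 RPKM, and Cpn1, a subunit of the carboxypeptidase that inactivates C3a and C5a, had 65.2, 72.1 and 80.0 RPKM. The test called neither gene (limma adjusted p = 0.883 and 0.845).

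**Figure D4:**
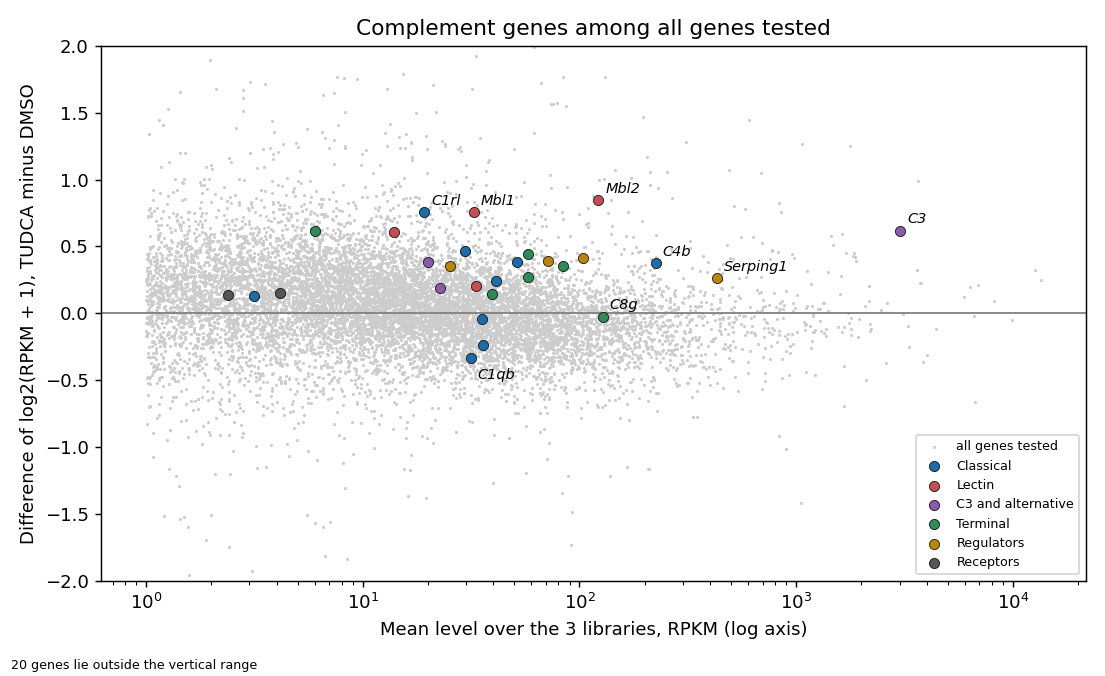
Difference of log2(RPKM + 1), TUDCA minus DMSO, against the mean level in RPKM on a log axis, for all 11300 genes tested (grey) and the 28 complement genes (coloured by route). Most complement genes lie above 0 and below 1, inside the cloud of other genes, with Mbl2 at 0.85 and C3 at 0.62.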

How the data were processed

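The authors deposited RPKM values, 1 table per library. Tools listed in the submitters' processing notes are HTSeq, Bowtie2, TopHat2 2.0.7 and CASAVA. For genome build, annotation and strand setting, nothing is given in the sources used here, and overlapping genes on opposite strands cannot be told apart. The members and lists were chosen with earlier results of these data known. Symbols came from GENCODE release M21 (32897 of 37620 identifiers). Reads were recovered as the smallest whole numbers that give the RPKM values, within 1e-09, for 19146 genes at totals of 10774289, 9757547 and 10575699. Values were tested as log2(RPKM + 1), which understates changes of low genes. Genes averaging 1 RPKM or more (11300) were fitted with limma 3.58.1 in R 4.3.3 (variance trend, Benjamini-Hochberg adjustment over all genes, threshold 0.05) and checked on simulated data. The 1 DMSO library was assumed to vary like the 2 TUDCA libraries. The prior degrees of freedom were infinite, so SE and p use a spread pooled by level (SD 0.159 to 0.265), not each gene's own. Every member was to be named, with full statistics for called genes and the 6 most abundant, and of the further genes those called and the 5 most abundant. Alternatives were another pseudocount, other filters, TPM, quantile normalization, median centring, no trend, robust estimation, voom on recovered reads and each TUDCA library left out. Some genes of the marker and further complement lists are not reported here.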

Additional observations from a re-analysis of the deposited data

How the results depend on the processing

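The number of complement genes called higher was 1 with a filter at 5 RPKM, median centring and robust estimation (Mbl2 each time). It was 3 with a pseudocount of 0.1 RPKM and with TPM (Mbl1, Mbl2 and C3), 2 with quantile normalization and with voom (Mbl2 and C3), and 0 without the variance trend and without the filter. With either TUDCA library left out there is no test, and 0 complement genes reached a log2 difference of 1. The number called lower was 0 under each alternative, voom included. All genes called numbered 299 by limma, 267 by voom, 0 by limma without the filter (1696 at an unadjusted p below 0.05, with prior degrees of freedom of 1.11 in place of infinite), and 188 to 284 by size with 1 TUDCA library left out. The cause of the other shifts was not tested. The median log2 difference of the complement genes was 0.31 to 0.38 under the settings with both TUDCA libraries, and 0.25 to 0.34 with 1 left out. Quantile normalization turned the sign of C4a (-0.0055), C8g (0.048) and C5ar1 (-0.0068), all near 0. Without TUDCA replicate 1 the signs of C1qc (0.033), C4a (-0.057), C8a (-0.034) and C8g (0.088) turned, against -0.11, 0.32, 0.33 and -0.14 without TUDCA replicate 2. No paired analysis was possible because there is only 1 DMSO library. Cfd, C7, Cd46 and Cd55 had at most 5 recovered reads (the smallest whole numbers) in any library, too few to compare at this depth.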
